A study of Mus musculus with 10 samples.

Results

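Insl3 and Jak3 are neighbouring mouse genes on chromosome 8 that run in the same direction and share an exon. They make up 2 of the 25239 genes of a count table and were chosen by their overlapping start and end positions and by their read counts, which differed between WT and cKO. Levels of both were set side by side in every library of wild-type (WT) testis and of testis labelled as a conditional knockout (cKO) of Lsm7, on postnatal days 4 (P4) and 7 (P7). Since the pair was picked with these levels known, the levels and fold changes of Insl3 and Jak3 are given as a description, with no test.

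The series concerns Lsm7 in germ cells during sperm development. There were 10 RNA-seq libraries of C57BL/6 testis: 2 WT and 3 cKO at P4, and 2 WT and 3 cKO at P7. The cKO genotype is written as Lsm7-flfl-stra8, a label that names loxP-flanked Lsm7 alleles and Stra8, a gene of germ cells. The labels do not say whether WT animals carried the flanked alleles or a recombinase, nor whether each library came from its own animal, so the spread between libraries may be technical. The cell type is labelled germ cell, but the protocol describes RNA from testis and mentions no sorting.

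INSL3 is a peptide hormone of the relaxin family that Leydig cells secrete, and it acts through the receptor RXFP2 on the gubernaculum, the ligament that guides the testis on its descent. Around birth it comes from fetal Leydig cells, which adult Leydig cells later replace. JAK3 is a tyrosine kinase that binds the common gamma chain (Il2rg) of a set of interleukin receptors, passes their signal to STAT factors and is best known from lymphocytes.

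Libraries held 28.8 to 41.8 M counted reads. Markers of Sertoli cells were read above those of germ cells. The 12 Sertoli cell genes summed to 3510 to 6850 CPM per sample (CPM, reads per 1 M of the library, scaled with TMM factors). For 12 germ cell genes the sum was 239 to 1610 CPM. The 16 Leydig cell genes summed to 1610 to 3090 CPM. Their sum equalled the germ cell sum in P7 WT (1610 CPM each) and was above it in the other groups. The pair of P7 WT libraries differed by little more than sampling noise (a chi-square of 1.98 per degree of freedom over genes, where other pairs of a group had 23.5 to 123), so it was summed and counted as 1 sample, which leaves 9 samples. P7 cKO library 1 stood apart from the other P7 cKO libraries (117 and 123, against 23.5 between those). Lsm7 was not lower in the P4 libraries labelled cKO, at 43.6 to 50.5 CPM against 25.7 to 36.2 CPM in WT (log2 fold change 0.58, SE 0.30, edgeR adjusted p = 0.215). At P7 it was read at 20.3 to 45.2 CPM in cKO and 33.3 CPM in WT (-0.13, SE 0.37, edgeR adjusted p = 0.835). Offsets for transcript length and GC content gave 0.29 at P4 (edgeR adjusted p = 0.374) and -1.01 at P7 (edgeR adjusted p = 0.158), so the P7 value turned on that correction and neither fit passed the test. In what follows cKO means a library so labelled.

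The count table (GRCm38) places Jak3 on the plus strand of chromosome 8 from 71676383 to 71690577, with 25 exons and 4085 exon bases. Insl3 runs from 71689252 to 71690577 on the same strand, with 2 exons and 587 exon bases. It starts 938 bases after exon 24 of Jak3, inside the last Jak3 intron of 1858 bases, and both genes end at the same base. Exon 2 of Insl3 (71690172 to 71690577, 406 bases) is also exon 25 of Jak3, base for base. In the GENCODE M21 annotation of GRCm38 this exon carries the end of the Insl3 coding sequence, up to a stop codon at 71690363 to 71690365, while the Jak3 stop codon lies earlier, in exon 24 (71688145 to 71688147). For Jak3 the shared exon is thus untranslated, and another Jak3 transcript of GENCODE ends in a longer exon 24 without it.

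**Figure D1:**
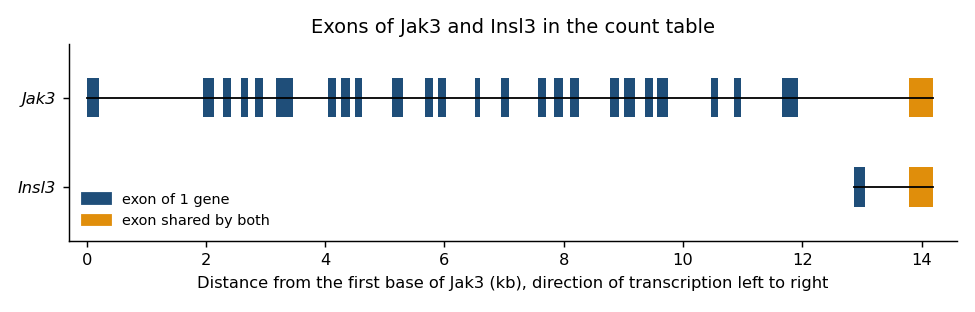
Exons of Jak3 (25) and Insl3 (2) in the count table, drawn to scale, with distance in kb from the first base of Jak3 on the x axis and 1 gene per line. The exon of 406 bases in orange belongs to both genes, and exon 1 of Insl3 lies within the last intron of Jak3.

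The sharing decides which reads could be counted. Of 474 genes whose every exon base belongs also to another gene on the same strand, 474 had no read in any library, against 2600 of 21348 genes (12.2%) with no shared base. The 59 genes whose bases are all shared with genes on the opposite strand were also without reads, 59 of 59. In this table, then, reads that fell in 2 genes went to neither, whatever their strand. Insl3 loses 406 of its 587 exon bases in this way (69.2%) and was read on the 181 bases of exon 1 alone, while Jak3 loses 9.94% and keeps 3679 countable bases. Of 707 genes with at least as large a same-strand shared part as Insl3, 86 had any read. The Insl3 values below therefore measure exon 1, and the Jak3 values measure exons 1 to 24, so neither count contains reads of the shared exon. RNA of Jak3 that still held its last intron would put reads in exon 1 of Insl3, and the table cannot tell such reads from Insl3 messenger RNA.

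The sequences the counts rest on are shown for 2 reasons: the coding part of exon 1 is nearly all that could be counted for Insl3, and the upstream stretches lie before the separate start that RefSeq gives each gene. GENCODE M21 starts Insl3 earlier, at 71689214, and Jak3 at 71676296, so the last 30 bases of each upstream stretch lie in exon 1 there. Both members (2 of 2) had an entry in the RefSeq promoter table of GRCm38. Capitals mark the start codon in the exon (bases from GENCODE M21) and, in the upstream stretches (from RefSeq), matches to 3 short motifs. All are on the plus strand, written 5′ to 3′.
Insl3 exon 1, coding part, chr8:71689258-71689432: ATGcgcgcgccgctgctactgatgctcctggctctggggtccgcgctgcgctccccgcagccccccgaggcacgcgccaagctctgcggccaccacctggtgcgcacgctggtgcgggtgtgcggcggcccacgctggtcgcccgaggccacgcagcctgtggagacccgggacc
Insl3 upstream, chr8:71689002-71689243: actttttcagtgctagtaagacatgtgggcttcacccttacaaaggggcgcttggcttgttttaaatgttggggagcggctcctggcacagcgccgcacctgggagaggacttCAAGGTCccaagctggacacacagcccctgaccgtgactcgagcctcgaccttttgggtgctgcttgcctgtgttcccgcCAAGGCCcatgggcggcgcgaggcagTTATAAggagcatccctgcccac
Jak3 upstream, chr8:71676133-71676325: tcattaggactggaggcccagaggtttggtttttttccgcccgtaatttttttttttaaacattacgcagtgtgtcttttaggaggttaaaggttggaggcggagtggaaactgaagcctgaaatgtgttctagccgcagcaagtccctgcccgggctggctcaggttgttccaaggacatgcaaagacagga

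The motifs were chosen after the sequence was seen and were searched on both strands in the window from 250 bases before to 50 bases after each RefSeq start. CAAGGTC and CAAGGCC are forms of the site bound by NR5A1, the nuclear receptor that drives steroid-producing cells, and TATAA is the core of the TATA box. Insl3 held CAAGGTC at 71689115 to 71689121, 137 bases before its start, and CAAGGCC at 71689195 to 71689201, 57 bases before it. TATAA lay on both strands, overlapping, from 71689221 to 71689226, about 30 bases before the RefSeq start and after that of GENCODE. The Jak3 window held none of the 3. Of 32851 promoter windows of the same length, 3.96% held CAAGGTC, 6.19% held CAAGGCC and 24.9% held TATAA. These are matches of letters and no measure of binding.

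Insl3 was read least in WT and most in cKO at P4. In the P4 WT libraries it had 10 and 67 reads, or 0.331 and 1.97 CPM. In the P4 cKO libraries it had 519, 460 and 509 reads, or 15.0, 15.7 and 13.4 CPM. The P4 cKO libraries lay close together and all far above both WT libraries. The WT libraries differed from each other beyond counting error, since the exact Poisson 95% interval of the first is 4.8 to 18.4 reads and that of the other 51.9 to 85.1 reads. These intervals cover counting error only and are too narrow here: 67.8% to 80.0% of counts under 50 were even numbers, as when both mates of a read pair are counted.

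At P7 the WT libraries had 19 and 10 Insl3 reads, together 0.503 CPM as 1 sample. The P7 cKO libraries had 42, 333 and 376 reads, or 1.28, 8.37 and 9.14 CPM. Libraries 2 and 3 were high and library 1 was low, near the WT level, though still above it. In a tissue sample a lower level of a transcript can come from fewer cells or from less RNA per cell, and these cannot be told apart.

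Jak3, with more countable exon, gave more reads. The P4 WT libraries had 187 and 157 reads (6.19 and 4.63 CPM), and the P4 cKO libraries 1215, 919 and 824 reads (35.1, 31.5 and 21.7 CPM). As for Insl3, every P4 cKO library was above both WT libraries, but here the WT pair lay close together. The P7 WT libraries had 89 and 63 reads, together 2.64 CPM, and the P7 cKO libraries 128, 792 and 911 reads (3.89, 19.9 and 22.1 CPM). Library 1 was again the low one of the P7 cKO group, above the WT sample and below both P4 WT libraries.

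**Figure D2:**
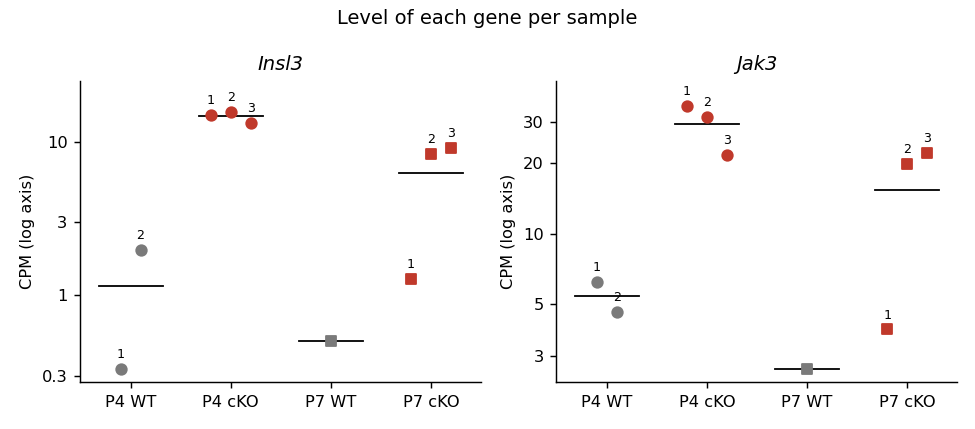
CPM of Insl3 (left) and Jak3 (right) on log axes in the 9 samples, by group. Points are samples with their library number, WT in grey and cKO in red, the P7 WT libraries are summed to 1 point, and bars are group means. Insl3 runs from 0.331 CPM to 15.7 CPM and Jak3 from 2.64 CPM to 35.1 CPM, and P7 cKO library 1 is the lowest cKO point of both genes.

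The group means of Insl3 fell in the order P4 cKO (14.7 ± 1.2 CPM, SD, n = 3), P7 cKO (6.26 ± 4.33, n = 3), P4 WT (1.15 ± 1.16, n = 2) and P7 WT (0.503, n = 1). Only the first step, from P4 cKO to P7 cKO, separates groups that do not overlap. P7 cKO and P4 WT overlap through P7 cKO library 1, and the P7 WT sample lies between the P4 WT libraries. Jak3 had the same order, with 29.4 ± 6.94 CPM (n = 3), 15.3 ± 9.96 (n = 3), 5.41 ± 1.10 (n = 2) and 2.64 (n = 1). Here the cKO groups overlap, P7 cKO and P4 WT overlap, and the P7 WT sample is below both P4 WT libraries.

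Per countable kb, Insl3 was the more abundant of the pair in every group mean. It reached 81.3 CPM per countable kb in P4 cKO against 8.0 for Jak3, and 34.6 against 4.16 in P7 cKO. In WT the levels were 6.37 against 1.47 CPM per countable kb at P4 and 2.78 against 0.717 at P7. The ratio held within all but 1 library: Insl3 was between 3.23 and 12.6 times Jak3 per countable kb in 9 libraries, and 1.09 times in P4 WT library 1.

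In reads, the ratio of Insl3 to Jak3 was 0.427, 0.501 and 0.618 in P4 cKO and 0.328, 0.420 and 0.413 in P7 cKO. It was 0.213 and 0.159 in the P7 WT libraries, below every cKO library. In P4 WT it was 0.0535 in library 1 and 0.427 in library 2, the latter equal to a cKO library. The low Insl3 level of P4 WT library 1 was thus not matched by a low Jak3 level, which was the higher of the WT pair, whereas P7 cKO library 1 was low for both genes with a ratio near that of its group.

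**Figure D3:**
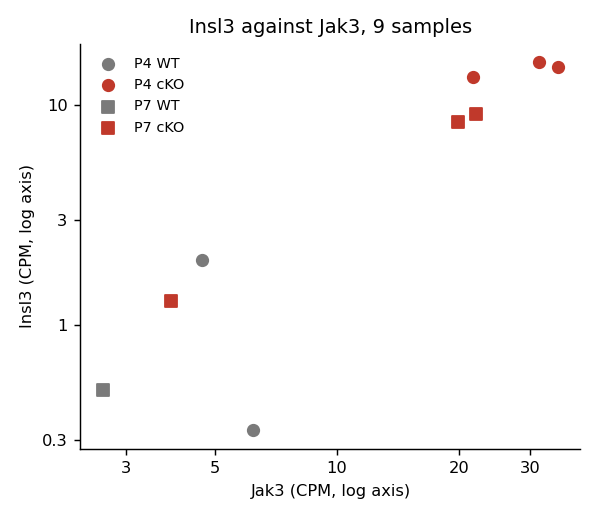
Insl3 against Jak3 in CPM on log axes, 1 point per sample, WT in grey, cKO in red, circles for P4 and squares for P7. 5 cKO samples sit together at the upper right, P7 cKO library 1 lies among the WT samples, and P4 WT library 1 has the lowest Insl3 (0.331 CPM) with the highest WT Jak3 (6.19 CPM).

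Between genotypes at P4, Insl3 was 12.6-fold higher in cKO (log2 fold change 3.65, SE 0.85) and Jak3 5.44-fold higher (2.44, SE 0.60). Both genes had every cKO sample above every WT sample, which 24.1% of the 18419 tested genes also had, and nothing is read from that count. At P7, Insl3 was 12.4-fold higher in cKO (3.63, SE 1.18) and Jak3 5.81-fold higher (2.54, SE 0.82). Again both genes had every cKO sample above the WT sample, as did 36.2% of tested genes. The median gene was at 0.00 (P4) and 0.08 (P7). With both members included, 28 tested genes had a log2 fold change at least as large as that of Jak3 at both stages. The pair was picked for its difference, so that number only describes its place.

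The size of the Insl3 difference at P4 rested on the WT libraries. Without P4 WT library 1 it was 2.89, and without P4 WT library 2 it was 5.46. At P7 it was 4.11 without P7 cKO library 1, and 4.22 and 3.24 without either WT library. Jak3 moved less, between 2.15 and 2.67 at P4 and between 1.81 and 2.99 at P7 over all alternatives, with 2.99 reached without P7 cKO library 1.

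From P4 to P7 both genes had lower values in both genotypes. Insl3 had a log2 fold change of -1.21 (SE 1.15) in WT and -1.23 (SE 0.64) in cKO. Jak3 had -1.03 (SE 0.79) in WT and -0.94 (SE 0.49) in cKO. The genotype difference at P7 minus that at P4 was -0.02 (SE 1.79) for Insl3 and 0.09 (SE 0.89) for Jak3. An SE obtained from the fold change and F is unstable for values so near 0, so these 2 are rough. They allow a sizeable change either way.

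Both transcripts are rich in G and C. The longest GENCODE transcript of Insl3 has 63.6% GC and that of Jak3 61.0%, against a median of 49.8% over tested genes with a value. Of those genes, 99.1% have a lower GC content than Insl3 and 97.0% a lower one than Jak3. Genes within 2 percentage points of Insl3 (328 genes) had a median log2 fold change of 0.39 at P4 and 1.07 at P7, and those near Jak3 (1009 genes) 0.26 and 0.94. With offsets for transcript length and GC content the differences were smaller, at 3.06 (P4) and 2.41 (P7) for Insl3 and 2.15 and 1.81 for Jak3.

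The nearest genes on chromosome 8 had smaller differences than the pair, which was likely beforehand, since the pair was picked for its difference and the neighbours were not. At P4, 0 of 7 tested neighbours passed the test (edgeR, adjusted over all tested genes, which called 8.96% of them, 4.84% higher and 4.13% lower in cKO), with 2 at an unadjusted p under 0.05 and 0 by DESeq2 or limma-voom. B3gnt3, a glycosyltransferase gene on the minus strand 1142 bases past the shared end, had 0.295 to 0.397 CPM in WT and 0.856 to 0.975 CPM in cKO at P4 (log2 fold change 1.41, SE 0.50, edgeR adjusted p = 0.0957). At P7 it had 0.382 CPM in WT and 0.365 to 0.553 CPM in cKO (0.35, SE 0.61, edgeR adjusted p = 0.722). Unc13a, a gene of vesicle release 4625 bases before Jak3, had -0.46 (SE 0.39) and 0.17 (SE 0.48). At P7, 2 of 7 passed, against 17.0% of all tested genes (7.26% higher and 9.72% lower). Fcho1, an endocytosis gene, rose by 1.01 (SE 0.29, edgeR adjusted p = 0.0376), and Zfp709, a zinc finger gene, fell by 1.32 (SE 0.35, edgeR adjusted p = 0.0261). Neither passed without P7 cKO library 2, and with length and GC offsets no neighbour passed (Fcho1 0.31, Zfp709 -0.45).

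**Figure D4:**
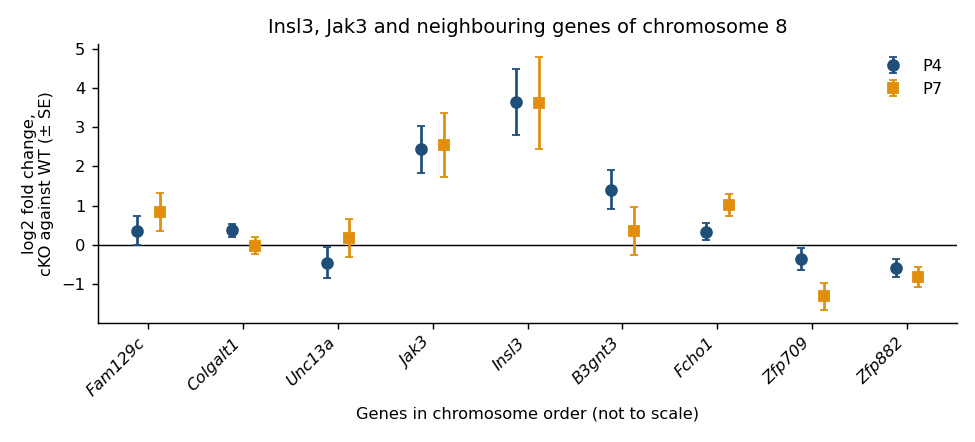
Log2 fold change of cKO against WT (± SE) at P4 (blue circles) and P7 (orange squares) for Insl3, Jak3 and the 7 tested neighbours in chromosome order, not to scale (Mir6769b, among the 8 nearest genes with a read, was too low to test). Insl3 (3.65 and 3.63) and Jak3 (2.44 and 2.54) lie above the neighbours at both stages, but the pair was picked with its levels known.

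Genes around INSL3 signalling were read as follows. Rxfp2, its receptor, had 5.33 and 1.62 CPM in P4 WT and 0.723, 0.685 and 1.5 CPM in P4 cKO. It had 0.590 CPM in P7 WT and 0.668, 0.301 and 1.65 CPM in P7 cKO. The cKO values all lay below WT at P4, as those of 25.6% of tested genes did, and on both sides of it at P7 (log2 fold changes -1.82, SE 0.67, edgeR adjusted p = 0.105, and 0.57, SE 0.91, edgeR adjusted p = 0.695). Of 8 genes of the relaxin family and its receptors, Rxfp2 included and Insl3 not, 6 could be tested and 0 passed edgeR's test at either stage, with 2 (P4) and 1 (P7) at an unadjusted p under 0.05, 1 and 1 by DESeq2 and 0 and 0 by limma-voom. Their median log2 fold change was 0.22 at P4 and 1.19 at P7. Among all tested genes edgeR called 8.96% at P4 and 17.0% at P7, so 0 of 6 says little. Insl6, a germ cell relative of Insl3, had 0.81 (SE 0.31, edgeR adjusted p = 0.118) and 0.46 (SE 0.40, edgeR adjusted p = 0.445). Rxfp1, the relaxin receptor, had 6.06 and 3.57 CPM in P4 WT and 1.88, 1.34 and 1.95 CPM in P4 cKO, where every cKO value was below WT (-1.47, SE 1.03, edgeR adjusted p = 0.368). At P7 it had 1.09 CPM in WT and 0.851, 23.5 and 29.4 CPM in cKO, with library 1 again the low one (4.03, SE 1.63, edgeR adjusted p = 0.124).

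Of 16 other genes of Leydig cells, the cells that make INSL3, 2 rose and 0 fell at P4 (median 0.37). Of all tested genes edgeR called 4.84% higher and 4.13% lower. Among the 16, 14 had a value above 0 and 8 an unadjusted p under 0.05, and DESeq2 called 7 and limma-voom 3. Star, which brings cholesterol into mitochondria, had 41.3 and 39.3 CPM in P4 WT and 78.6, 98.1 and 109 CPM in P4 cKO (log2 fold change 1.24, SE 0.26, edgeR adjusted p = 0.0224). Fdx1, the electron donor of steroid-making enzymes, rose by 1.36 (SE 0.25, edgeR adjusted p = 0.0168). Both calls were lost when P4 WT library 1 was left out, and likewise for P4 cKO libraries 2 and 3. Every P4 cKO sample was above every WT sample in 24.1% of all tested genes, Insl3 included, and in 7 of the 16 Leydig genes. Among these were Cyp11a1, the first enzyme of steroid synthesis, with 57.9 and 62.5 CPM in WT and 150, 124 and 164 CPM in cKO (1.28, SE 0.39, edgeR adjusted p = 0.0646), and Cyp17a1, an androgen synthesis enzyme, with 33.9 and 40.4 CPM in WT and 92.6, 112 and 111 CPM in cKO (1.5, SE 0.45, edgeR adjusted p = 0.0634), both chosen after their values were seen. In 1 gene, Hsd17b3, every cKO sample was below (-0.69, SE 0.21, edgeR adjusted p = 0.0620), an order that 25.6% of all tested genes had. The summed Leydig level, set mostly by the most abundant genes, was 2570 to 2980 CPM in P4 WT and 2850 to 3090 CPM in P4 cKO. Hsd17b3 alone had 889 and 583 CPM in P4 WT and 470, 480 and 419 CPM in P4 cKO. Whether each list gene is read from Leydig cells alone at these ages was not tested, so the sum is no measure of Leydig cells.

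At P7, 1 of the 16 Leydig genes rose and 2 fell (median 0.03), against 7.26% higher and 9.72% lower of all tested genes. Nr5a1, the receptor whose site was searched above, rose by 0.77 (SE 0.21, edgeR adjusted p = 0.0321), from 163 CPM in WT to 272 to 283 CPM. Lhcgr, the receptor for luteinizing hormone, fell by 1.18 (SE 0.27, edgeR adjusted p = 0.0161), and Thbs2, a matrix protein gene, fell by 0.99 (SE 0.21, edgeR adjusted p = 0.0140). With length and GC offsets none of these passed, and the values were 0.09 for Nr5a1, -0.35 for Lhcgr and -0.66 for Thbs2. The summed level was 1610 CPM in P7 WT and 1680 to 1880 CPM in P7 cKO. In P7 cKO library 1, where Insl3 was low, the Leydig list did not move as one: of the 16 genes, 8 were lowest of the P7 cKO libraries there and 6 were highest there. Cyp17a1 had 26.0 CPM in library 1 against 88.0 and 106 CPM in libraries 2 and 3, and Star 34.4 against 59.4 and 65.6 CPM. Fdxr, which passes electrons to Fdx1, had 322 CPM there against 185 and 185 CPM, and Cyb5a, a cofactor of androgen synthesis, 149 against 78.1 and 83.6 CPM. These 4 genes were picked after their values were seen, and their part in the Insl3 level was not tested.

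**Figure D5:**
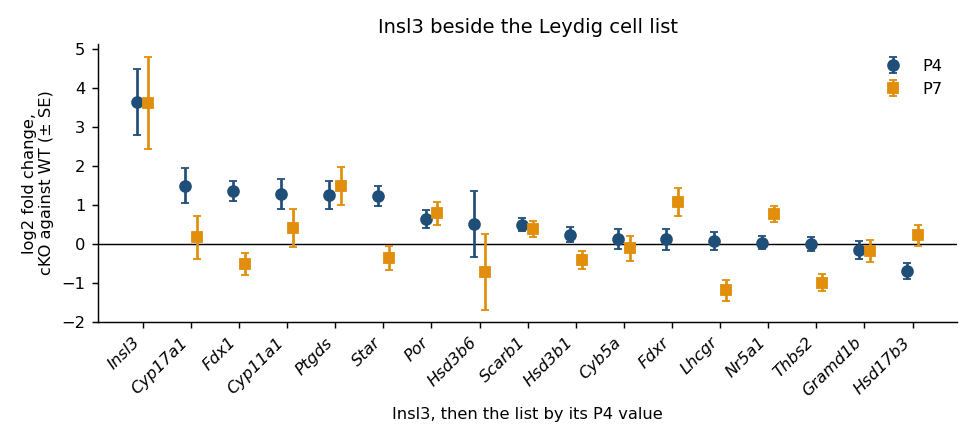
Log2 fold change of cKO against WT (± SE) at P4 (blue circles) and P7 (orange squares) for Insl3 and 16 other Leydig cell genes, ordered by their P4 value. Insl3, picked with its levels known, lies above each of the others at both stages. Star and Fdx1 are above 0 at P4. At P7 Star is at -0.35 (SE 0.31) and Fdx1 at -0.51 (SE 0.29), and neither passed the test. With length and GC offsets, not drawn, these P7 values were 0.02 and -0.01.

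Of 17 genes known to regulate Insl3 transcription, 2 rose and 1 fell at P4 (median 0.09), and 2 rose and 6 fell at P7 (median -0.58). Of all tested genes edgeR called 4.84% higher and 4.13% lower at P4, and 7.26% and 9.72% at P7. Cebpb, a transcription factor of the C/EBP family, had 9.40 and 6.90 CPM in P4 WT and 28.1, 32.9 and 20.2 CPM in P4 cKO. It rose at both stages, by 1.73 (SE 0.33, edgeR adjusted p = 0.0189) and 2.01 (SE 0.45, edgeR adjusted p = 0.0158). Nr0b1, a repressor of NR5A1 activity, rose by 0.91 at P4 (SE 0.18, edgeR adjusted p = 0.0191). Mef2a, a MADS-box factor, fell at both stages, by 0.72 (SE 0.17, edgeR adjusted p = 0.0301) and 1.23 (SE 0.21, edgeR adjusted p = 0.00743), and at P7 Creb1 fell by 1.17 (SE 0.21, edgeR adjusted p = 0.00895) and Klf6 by 1.16 (SE 0.26, edgeR adjusted p = 0.0152). Genes that activate and genes that repress Insl3 are both in this list, and Nr5a1 and Lhcgr belong to the Leydig list too. With length and GC offsets no list gene passed at P7, and Cebpb was then at 0.68, Mef2a at -0.43, Creb1 at -0.15 and Klf6 at -0.47. At P4 the offsets left Nr0b1 past the threshold, but not Cebpb (1.2, edgeR adjusted p = 0.0516) or Mef2a (-0.54, edgeR adjusted p = 0.0630).

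Of 35 tested genes that act with or on JAK3 (receptor subunits, their cytokines, other JAK kinases, STAT factors and inhibitors), 2 passed at P4 (5.71%, against 8.96% of all tested genes) and 7 at P7 (20%, against 17.0%), shares near those of all genes. Il2rg, the common gamma chain, had 4.24 and 2.27 CPM in P4 WT and 1.85, 1.47 and 2.24 CPM in P4 cKO, all cKO values below WT (log2 fold change -0.80, SE 0.34, edgeR adjusted p = 0.147). At P7 it had 1.68 CPM in WT and 1.91, 1.86 and 2.02 CPM in cKO (0.20, SE 0.44, edgeR adjusted p = 0.785). Of 8 gamma chain receptor subunits, 0 passed edgeR's test at P4 (2 at an unadjusted p under 0.05, 0 by DESeq2 and 0 by limma-voom) and 1 rose at P7, Il4ra (0.82, SE 0.26, edgeR adjusted p = 0.0479, and 0.51 with length and GC offsets). Of 6 cytokines that use the chain, only Il15 and Il7 had enough reads to test. Il15 had -0.43 (SE 0.29) at P4 and -0.15 (SE 0.37) at P7, and 0 of the tested cytokines passed at either stage by edgeR, DESeq2 or limma-voom, or at an unadjusted p under 0.05.

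Of the other JAK kinases and the STAT factors (10 genes), 0 rose and 1 fell at P4, Stat2 (-0.80, SE 0.22, edgeR adjusted p = 0.0450, and 0.0593 with length and GC offsets), and 0 rose and 2 fell at P7. The falls at P7 were of other kinases of the family: Jak1, from 423 CPM in WT to 222, 217 and 237 CPM (-0.91, SE 0.24, edgeR adjusted p = 0.0279), and Jak2 (-0.91, SE 0.24, edgeR adjusted p = 0.0273). With length and GC offsets they were at -0.53 and -0.30. Stat5a and Stat5b, the factors JAK3 is known to act on, had 0.02 (SE 0.21) and -0.02 (SE 0.16) at P4 and 0.07 (SE 0.26) and 0.08 (SE 0.20) at P7. Of 15 inhibitors of the pathway, 0 rose and 1 fell at P4 (Socs2, by 1.00, SE 0.21, edgeR adjusted p = 0.0217). At P7, 2 rose (Socs1, Pias4) and 2 fell (Socs5, Pias2). With length and GC offsets Socs1 was at 0.30, Pias4 at 0.03, Socs5 at -0.56 and Pias2 at 0.07. The median log2 fold changes of both lists lay between -0.11 and 0.11. Over all tested genes edgeR called 4.84% higher and 4.13% lower at P4, and 7.26% and 9.72% at P7.

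Lymphocytes, in which Jak3 is best known, left little RNA in these libraries. Their 14 markers summed to 9.93 to 12.1 CPM in P4 WT, 8.47 to 12.3 in P4 cKO, 6.14 in P7 WT and 8.29 to 9.78 in P7 cKO, and 14 of 14 had reads. Jak3 had 4.63 to 6.19 CPM in P4 WT, 21.7 to 35.1 in P4 cKO, 2.64 in P7 WT and 3.89 to 22.1 in P7 cKO. The part of lymphocytes in the Jak3 level was not tested. Of 12 tested markers 0 passed edgeR's test at either stage, with 3 (P4) and 3 (P7) at an unadjusted p under 0.05, 0 and 1 by DESeq2 and 0 and 0 by limma-voom. Their medians were -0.07 at P4 and 0.28 at P7. Of all tested genes edgeR called 8.96% at P4 and 17.0% at P7, so 0 of 12 says little. Cd3e, of the T cell receptor complex, had 0.530 and 0.648 CPM in P4 WT and 0.289, 0.445 and 0.421 CPM in P4 cKO. Lck, a T cell kinase, had 3.57 and 3.09 CPM in P4 WT and 2.92, 3.36 and 3.11 CPM in P4 cKO. Of 10 genes of blood cells in general, 0 passed at P4 (2 at an unadjusted p under 0.05, 1 by DESeq2 and 0 by limma-voom), and at P7 Coro1a rose (1.18, and 0.43 with offsets) and Cd53 fell (-1.82, and -1.05 with offsets).

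Markers of other cells moved with the groups as well. Over all tested genes edgeR called 4.84% higher and 4.13% lower at P4, and 7.26% and 9.72% at P7. At P4, 3 of 12 macrophage genes rose (C1qa, C1qb, Lyz2), with sums of 104 to 121 CPM in WT and 119 to 199 in cKO, and 4 of 12 Sertoli cell genes rose (Sox9, Amh, Clu, Aard), with sums of 3510 to 4850 and 6120 to 6850 CPM. Of 12 germ cell genes, 2 fell (Mael, Tdrd9), with sums of 279 to 376 and 239 to 244 CPM. With length and GC offsets Sox9, Mael and Tdrd9 still passed at P4, and C1qa, C1qb, Lyz2, Amh, Clu and Aard did not. Of 12 spermatid genes 0 passed (5 at an unadjusted p under 0.05, 3 by DESeq2, 1 by limma-voom). At P7, 1 macrophage gene fell (Mrc1), and 1 Sertoli gene rose (Amh) and 1 fell (Sox9). Of the germ cell genes 1 rose (Sohlh1) and 1 fell (Dazl). Of the 12 spermatid genes 6 rose (Prm1, Prm2, Tnp2, Smcp, Odf1, Cabs1). Spermatid sums were 7.79 CPM in P7 WT and 17.0 to 36.7 in P7 cKO. At P4 they were 18.7 to 21.4 CPM in WT and 16.9 to 19.0 in cKO. Prm1, Prm2, Tnp2, Smcp and Cabs1 had 0 CPM in the P7 WT sample. Among the P7 cKO libraries, library 1 had the highest value for 10 of the 12. With length and GC offsets none of these passed, and the values were -0.55 for Mrc1, -0.20 for Amh, -0.64 for Sox9, 0.22 for Sohlh1 and -0.08 for Dazl. The spermatid values changed little in size. Prm1 went from 9.13 to 8.84, Prm2 from 10.07 to 9.77 and Tnp2 from 9.11 to 8.78. Smcp went from 8.32 to 8.18, Odf1 from 3.6 to 3.16 and Cabs1 from 6.47 to 6.54. Of the erythroid list, 3 of 7 genes had reads (0 passed at P4, 1 at an unadjusted p under 0.05, 0 by DESeq2 and 0 by limma-voom). Alas2 fell at P7 (log2 fold change -2.54, and -2.91 with length and GC offsets, where it did not pass). The part of these cells in the Insl3 and Jak3 levels was not tested. Over all lists 16 of 145 tested genes (11%) passed at P4 and 30 (20.7%) at P7, near the shares of all genes.

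Genes whose levels over the 9 samples ran most like Insl3 (Pearson coefficient of log2 (CPM + 1), 13575 genes) were Tmem37 (0.989), Fabp3 (0.984), Arhgdia (0.983), Rnf26 (0.982) and Kars (0.982). Jak3 came at rank 57, with 0.950. For Jak3 the closest were Kxd1 (0.982), Ubap1 (0.970), Zfp768 (0.970), Cmtm7 (0.968) and Fem1a (0.967), and Insl3 came at rank 18. The samples form groups, so these coefficients describe the samples and carry no test. Tmem37, closest to Insl3, went from 1.76 to 5.38 CPM at P4 and from 1.35 to 3.38 CPM at P7 in mean level, with log2 fold changes of 1.6 and 1.32, smaller than those of Insl3.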

How the data were processed

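RNA from mouse testis was sequenced from TruSeq libraries, per the labels' protocols. The authors deposited 1 table of raw read counts per gene with exon coordinates. The submitters' processing notes name Trim Galore 0.6.10, STAR 2.7.11a and featureCounts of Subread 2.0.6, on GRCm38. Strand and overlap settings (not given in the sources used here) were read from the table itself. A count is of reads that fell in 1 gene only. Reads were scaled to CPM with TMM factors, filtered with filterByExpr (18419 of 25239 genes kept, both members among them) and fitted with 1 mean per group (9 samples, 5 residual degrees of freedom). Tests were edgeR's robust quasi-likelihood F tests (version 4.0.16, R 4.3.3, two-sided, Benjamini-Hochberg over all tested genes, threshold 0.05). The single P7 WT sample was given the spread of the other groups. SE was obtained as log2 fold change over the root of F, which is unstable where the fold change is near 0. Countable length is the exon length that no other gene shares. Scripts were tested on simulated counts.

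The members, lists and tests were chosen with earlier results of these data known. Named genes are the members, the 4 nearest genes with a read on each side, up to 4 passing members with the smallest p of each of 14 lists (or the 2 with the highest level where none passed), and the 5 genes most like each member. Others are named as partners of the pair, after their values were seen. Same-numbered WT and cKO libraries did not deviate together (correlations 0.145 and -0.0926 at P4, 0.00292 and -0.00534 at P7) and were not treated as pairs. Alternatives were DESeq2 1.42.0, limma-voom (limma 3.58.1), RLE factors, library totals, no filter, a minimum count of 50, each stage alone, all 10 libraries, a replicate block, length and GC offsets, and leaving out each library.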

Additional observations from a re-analysis of the deposited data

How the results depend on the processing

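Insl3 and Jak3 were higher in cKO at both stages under every alternative run (20 per gene and stage). The pair was picked for its difference in these same counts, so the shared sign was likely beforehand and nothing is read from it. Insl3 at P4 ranged from 2.89 to 5.46 on the log2 scale when 1 library was left out. Insl3 at P7 and Jak3 at both stages moved by less than their pooled SD of log2 CPM within groups. That SD is wide, at 1.3 for Insl3 and 0.93 for Jak3. Insl3 at P7 stayed within it while going from 3.63 to 2.41 with length and GC offsets. The number of genes passing at P4 (1651) was 2895 with all 10 libraries, 3020 with DESeq2, 726 with length and GC offsets, 3229 with the stage alone, and 2 to 4157 when 1 library was left out (2 without P4 WT 1, 816 without P4 WT 2, 570, 13 and 11 without P4 cKO 1, 2 and 3, 4157 without P7 cKO 1). At P7 (3129) it was 6905 with 10 libraries, 2 with offsets, 0 with the stage alone (where WT is 1 sample), and 961 to 4921 without 1 library (2012 without P4 cKO 2, 961 without P7 cKO 2, 4921 without P7 cKO 1). The higher and lower split was 891 and 760 at P4 and 1338 and 1791 at P7, but 528 and 1544, and 1744 and 1402, with library totals, which moved the median gene to -0.16 and 0.19. List genes passing at P4 (16) were 31 with DESeq2, 10 with offsets, 34 with the stage alone and 0 to 38 without 1 library (0 without P4 WT 1, P4 cKO 2 or P4 cKO 3, 38 without P7 cKO 1). At P7 (30) they were 57 with 10 libraries, 0 with offsets, 0 with the stage alone and 11 to 45 without 1 library (11 without P7 cKO 2). Neighbours passing were 0 to 1 at P4 without 1 library (1 without P7 cKO 1), and at P7 (2) 0 with offsets, 0 with the stage alone and 0 to 3 without 1 library (0 without P7 cKO 2, 1 without P4 cKO 1). The cause of these shifts was not tested. Fits without 1 library also have fewer samples, and the numbers passing went both down and up in them.

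With the replicate block, which pairs libraries by number although the numbers pair nothing in the labels, 2732 genes passed at P4 and 7438 at P7, with 27 and 64 list genes and 4 neighbours at P7. Insl3 was then 3.78 and 3.22.

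Some genes other than the members changed sign. At P4 these were Fam129c (-0.15 to 1.13 without 1 library), Il7 (-0.74 with limma-voom, -0.02 to 0.74 without 1 library), Lck (-0.19 to 0.01 without 1 library) and Spaca1 (-0.01 with DESeq2 and RLE factors, -0.14 with library totals, -0.03 with minimum count 50, -0.06 with the block, -0.20 to 0.19 without 1 library). At P7, offsets gave Amh -0.20, B3gnt3 -0.08, Il7 0.55, Pias2 0.07, Unc13a -0.01 and Zfp882 0.03. Also at P7, Colgalt1 was 0.08 with library totals and -0.07 to 0.03 without 1 library, Il15 -0.44 to 0.00 and Unc13a -0.10 to 0.48 without 1 library. The cause was not tested. Depth limits Insl3 in WT, where 10 to 67 reads per library carry each value.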
